A study of Canis lupus familiaris with 6 samples.

Results

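Genes of cholesterol and fatty acid synthesis were described in 3 canine mammary tumor cell lines grown alone or in co-culture with myeloid-derived suppressor cells (MDSCs). A list of 46 genes was searched by gene symbol among the probes of the array that are not controls, and 38 of them were found among 13038 distinct symbols. No probe was found by name for *LSS*, *INSIG1*, *SC4MOL*, *EBP*, *ACACB*, *IDI1*, *INSIG2* and *FADS1*. Each gene was followed by its brightest probe, and all 38 were tested. Of these, 32 were well above background in all 12 channels, and none was below it in all channels. *THRSP* was well above background in 2 of 12 channels, *ELOVL2* in 3, *ACSL6* in 5 and *ELOVL7* in 7, so their values are less certain than the rest.

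Cholesterol is built from acetyl-CoA through mevalonate and the isoprenoids to squalene, which is then closed and trimmed to the sterol. Fatty acids are built from the same acetyl-CoA by acetyl-CoA carboxylase and fatty acid synthase. They are activated by coupling to coenzyme A, and are elongated and desaturated in that form. Both branches are regulated by the sterol regulatory element-binding proteins (SREBPs), transcription factors that the escort protein SCAP carries out of the endoplasmic reticulum when membrane sterol is low. Mammary epithelium is a tissue with a known capacity for lipid synthesis, since it makes milk fat.

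The lines came from tumors of different type. P114 is from an anaplastic cancer, CMT-U27 is from a simple carcinoma, and CMT-U309 is from a spindle cell tumor. All cultures, monocultures included, received 10% heat-inactivated fetal bovine serum. Co-cultured cells shared their medium with MDSCs that had been sorted from healthy dogs' blood and were kept in inserts. The labels give at least 72 h of co-culture and the methods a shorter time. Each line was measured on 2 arrays that carried the same pair of RNAs with the dyes exchanged, co-culture RNA in Cy5 on the first array and in Cy3 on its swap, giving 6 arrays and 6 RNAs (1 co-culture and 1 monoculture RNA for each line). Each line is thus 1 culture per condition and stands for its tumor type only as that 1 line. The RNA is that of whole cultures, so less RNA per cell and fewer cells of a type cannot be told apart.

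The signals of some arrays stood apart. Between 53.0% and 81.0% of spots were well above background, depending on the channel. Across probes, the co-culture ratios of a dye-swap pair correlated at -0.39 for P114, 0.26 for CMT-U27 and -0.09 for CMT-U309. Over the 38 genes these correlations were -0.59, 0.24 and 0.11, so the arrays of P114 in particular gave different orders of the same genes. Markers of the lines were also read. Of 6 epithelial markers 4 were found, and *EPCAM* stood at a level of 15.4 in CMT-U27, 9.18 in P114 and 6.68 in CMT-U309, on the log2 scale of scaled signal explained below. Of the mesenchymal markers, *VIM* stood at 16.9 in P114 and 16.2 in CMT-U309 against 10.2 in CMT-U27. CMT-U27 therefore carried the epithelial markers, while the anaplastic line P114 shared high mesenchymal markers with the spindle cell line. Of 10 myeloid markers 8 were found, and *ITGAM* and *LYZ* were well above background in 0 of 12 channels. *S100A8* and *ITGB2* were so in all 12 and *S100A9* in 9, and *S100A8* stood at 13.1 in CMT-U27, 8.75 in P114 and 6.50 in CMT-U309. None of the 8 myeloid markers passed an unadjusted p of 0.05 between co-culture and monoculture. *EPCAM* did, with a mean log2 ratio of -0.46 in co-culture, and its part in the ratios below was not tested. The summed level of the myeloid markers ranged from 7.62 to 13.6 over the co-culture channels and from 7.93 to 12.8 over the monoculture channels.

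The array measures each gene with probes of 60 bases. The first 30 bases are given for 5 probes on which the results below turn, in the direction in which they are listed, from 5′ to 3′. *HMGCS1*, *MLXIPL* and *ACSL6* carried large differences between lines, and *SQLE* and *SREBF2* were higher in co-culture by unadjusted p. Capitals are not used, since no base within a probe is set apart. Coordinates are those of the whole probe on canFam2 as the files give them, and the exon or untranslated region was not annotated here.
HMGCS1 (chr4:69852138-69852197, + strand): catgaattgtgtgcttcaggcgaagaaagc
SQLE (chr13:26054276-26054335, + strand): gtacaaagcatgttctgtaatctttcctct
SREBF2 (chr10:26516545-26516604, - strand): agaaggcgggtgaccgacgctcctgcaacg
MLXIPL (chr6:9653295-9653354, + strand): gaatgcgtgtgtgtggattttgtaaagaat
ACSL6 (chr11:23232330-23232389, - strand): gtaatgaatcagaatgatgcagccgaaaat

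The levels of the genes differed between the lines, and most were highest in CMT-U27. A level is the log2 of the processed signal after every channel was scaled to the same median, averaged over the 2 arrays of an RNA, and it is compared only between samples for 1 probe. The level was highest in CMT-U27 for 27 of 38 genes, in CMT-U309 for 7 and in P114 for 4. Over all 12598 gene symbols tested, CMT-U27 was highest for 40.1%. A gene was called different between lines at a Benjamini-Hochberg adjusted p below 0.05 in limma together with a fold change over 2. By this rule 21 genes (55.3%) were higher and 4 (10.5%) lower in CMT-U27 than in CMT-U309, against 18.1% and 14.0% of all gene symbols. Between P114 and CMT-U27, 12 genes (31.6%) were lower and 1 (2.63%) higher in P114, against 15.6% and 11.3% of symbols. P114 was higher than CMT-U309 for 9 genes (23.7%) and lower for 3 (7.89%), where symbols gave 7.38% and 8.14%. Leaving out the scaling of the channels moves all probes of a line together. Then 0 genes were higher and 19 lower in P114 than in CMT-U27, against 5.99% and 22.6% of all probes. Against CMT-U309, P114 had 2 genes higher and 10 lower, where 2.07% and 26.9% of probes were, so that the lower genes were about as frequent as on the whole array. CMT-U27 had 19 genes higher and 5 lower than CMT-U309, against 10.6% and 20.1% of probes. The counts that involve P114 thus depend on the scaling. In at least 1 of the 3 comparisons 26 genes (68.4%) were called, compared with 42.6% of symbols. The median difference of the 38 genes was 1.26 for CMT-U27 minus CMT-U309, -0.58 for P114 minus CMT-U27 and 0.31 for P114 minus CMT-U309, while the medians over all gene symbols were 0.09, 0.03 and 0.08. CMT-U27 was highest and called against both other lines for 12 genes, and 10.8% of symbols had this pattern. CMT-U309 had it for 3 genes (4.72% of symbols) and P114 for 0 (2.66% of symbols). The 2 RNAs of a line share its arrays, and all arrays of a line lie on 1 slide. Slide and line can thus not be told apart. The p-values measure only the spread between the 2 cultures of a line once the co-culture shift shared by the lines is removed. Those cultures differ in condition and are no replicates, and the p-values are likely too small.

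**Figure D1:**
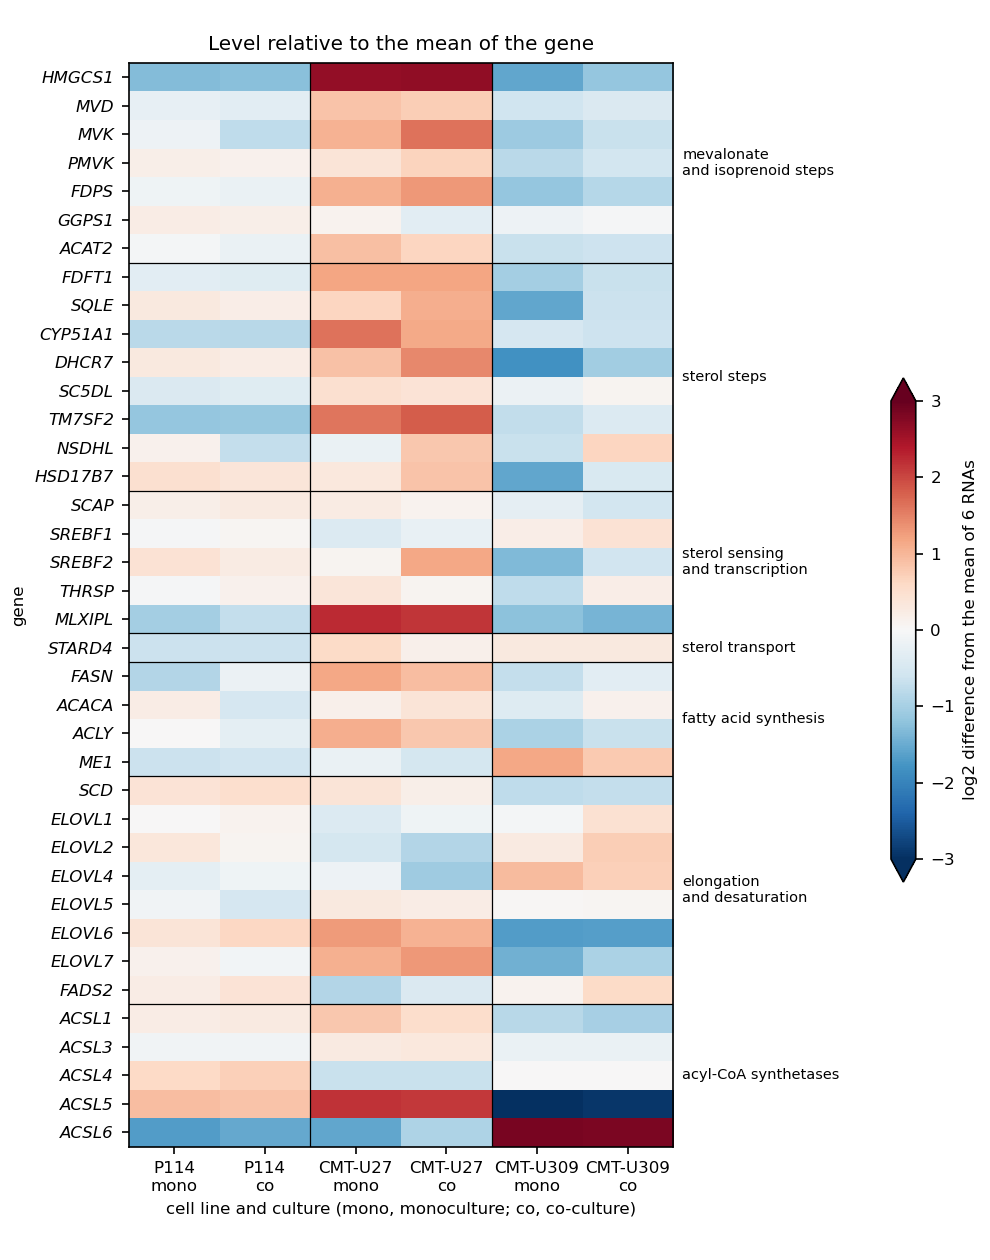
Level of each of the 38 genes (rows, ordered by role) in the 6 RNAs (columns, monoculture and co-culture of each line) as the log2 difference from the mean of that gene over the 6 RNAs. Red is above and blue below the mean, the scale ends at 3 on either side, and ACSL5 in CMT-U309 goes past it. The CMT-U27 columns are red for most genes of the mevalonate and sterol steps, and HMGCS1 and MLXIPL stand out.

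Nearly all genes of the mevalonate and isoprenoid steps were called higher in CMT-U27 than in CMT-U309. Of 7 genes found, 6 were higher in CMT-U27 than in CMT-U309, 0 were lower, and the median difference was 1.42. *HMGCS1*, the synthase that makes HMG-CoA, stood at 14.16 in monocultured and 14.19 in co-cultured CMT-U27. It stood at 10.25 and 10.28 in P114, and at 9.97 and 10.38 in CMT-U309. Both CMT-U27 RNAs were thus far above the other 4, with a log2 difference of P114 from CMT-U27 of -3.91 ± 0.15 (SE; 15.1-fold, adjusted p = 2.4e-08) and a 16.0-fold excess of CMT-U27 over CMT-U309 (adjusted p = 1.7e-08), whereas P114 and CMT-U309 did not differ beyond their spread (adjusted p = 0.70). Its other 2 probes gave differences of 3.54 and 3.32 between CMT-U27 and CMT-U309. *MVK*, mevalonate kinase, was 4.63-fold higher in CMT-U27 than in CMT-U309 (adjusted p = 0.00017). *FDPS*, which makes farnesyl diphosphate, was 4.55-fold higher (adjusted p = 1.3e-06), although its second, dimmer probe gave a difference of only 0.19. *ACAT2* (2.67-fold), *MVD* (2.49-fold) and *PMVK* (2.31-fold) were higher too. *GGPS1*, which leads to geranylgeranyl diphosphate and away from sterols, was the exception, with a difference of -0.01 between these lines and its highest level, 8.97, in P114.

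In the sterol steps CMT-U27 was again the highest line. This held for all 8 genes found, of which 4 were lowest in P114 and 4 in CMT-U309, and 6 of them were called higher there than in CMT-U309, with a median difference of 1.96. *TM7SF2*, a sterol reductase, stood at 10.31 and 10.51 in monocultured and co-cultured CMT-U27, 7.54 and 7.57 in P114, and 7.97 and 8.30 in CMT-U309. CMT-U27 was separate from the other lines, 7.21-fold above P114 (adjusted p = 3.5e-07) and 4.83-fold above CMT-U309 (adjusted p = 1.6e-06). *CYP51A1*, the sterol demethylase, was 4.61-fold higher in CMT-U27 than in P114 and 3.89-fold higher than in CMT-U309. Its second, dimmer probe gave -0.52 for P114 minus CMT-U27 and 0.89 for CMT-U27 minus CMT-U309, both below the fold required. *FDFT1*, squalene synthase, was 4.08-fold above CMT-U309. *SQLE*, squalene epoxidase, stood at 12.57 and 13.02 in CMT-U27, 12.22 and 12.12 in P114, and 10.37 and 11.27 in CMT-U309. Here CMT-U309 was apart from the other lines, 3.92-fold below CMT-U27 (adjusted p = 2.9e-05) and 2.55-fold below P114 (adjusted p = 0.00084), and its second probe gave nearly the same difference from CMT-U27, 1.95 against 1.97. *DHCR7*, which closes the pathway with the last reduction, and *HSD17B7* also had their lowest level in CMT-U309, 2.58 and 1.59 below CMT-U27 on the log2 scale. For *HSD17B7* this became 0.75 after normexp background correction, below the fold required. *SC5DL* and *NSDHL* were not called in any comparison of lines.

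**Figure D2:**
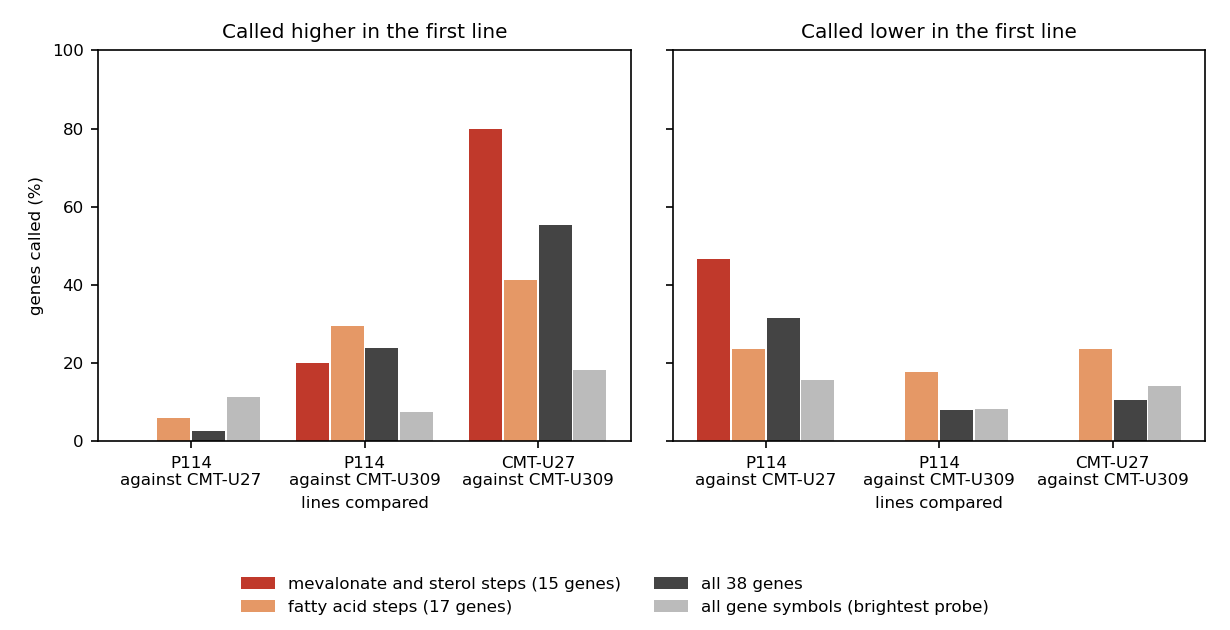
Share of genes called in each comparison of 2 lines (adjusted p below 0.05 and fold over 2), split by direction, for the mevalonate and sterol steps, the fatty acid steps (synthesis, elongation and desaturation, acyl-CoA synthetases), all 38 genes and all gene symbols by their brightest probe. For CMT-U27 against CMT-U309 the mevalonate and sterol genes reach 80.0% higher and 0.0% lower, while the fatty acid genes are called in both directions (41.2% and 23.5%).

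The regulators did not move as a group. Of 5 genes found for sterol sensing and transcription, 2 were higher in CMT-U27 than in CMT-U309 and 0 lower. *MLXIPL*, which encodes the carbohydrate response element-binding protein, stood at 9.03 and 8.94 in monocultured and co-cultured CMT-U27, 5.78 and 6.08 in P114, and 5.56 and 5.39 in CMT-U309. CMT-U27 was 11.4-fold above CMT-U309 (adjusted p = 5.0e-07) and 8.34-fold above P114 (adjusted p = 1.5e-06), with the probe well above background in 11 of 12 channels. After normexp background correction the difference from CMT-U309 was smaller, 1.64 on the log2 scale against 3.51. *SREBF2*, the SREBP gene best known for cholesterol synthesis, was 2.98-fold higher in CMT-U27 than in CMT-U309 (adjusted p = 0.00099), but its RNAs were not alike within CMT-U27 (7.18 in monoculture, 8.24 in co-culture). After normexp background correction its difference between these lines was 0.72 on the log2 scale, below the fold required. *SREBF1*, known mainly for fatty acid synthesis, was highest in CMT-U309 (14.89 and 15.13), then P114 (14.68 and 14.76), then CMT-U27 (14.29 and 14.49). No pair of lines differed by a fold over 2 for *SREBF1*, and its other probes gave -0.26 and 0.33 where the brightest gave -0.63 for CMT-U27 minus CMT-U309. *SCAP* levels ranged by 0.63 between lines. *STARD4*, a carrier of sterol between membranes, had its lowest level in P114, 1.99-fold below CMT-U27, which was just under the fold required.

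Genes of fatty acid synthesis and of later steps went in both directions between lines. *FASN*, fatty acid synthase, stood at 10.90 and 10.66 in monocultured and co-cultured CMT-U27, 8.86 and 9.57 in P114, and 9.02 and 9.42 in CMT-U309. CMT-U27 was above both others by 2.95-fold (adjusted p = 0.00018 against P114 and 0.00015 against CMT-U309). *ACLY*, which makes cytosolic acetyl-CoA from citrate, was 2.12-fold higher in CMT-U27 than in P114 and 3.37-fold higher than in CMT-U309. All 3 other probes of *ACLY* gave the same direction against CMT-U309, at 0.97, 0.32 and 1.37 on the log2 scale. For P114 minus CMT-U27 these probes gave -0.45, -0.33 and -0.83, all below the fold required. *ACACA*, acetyl-CoA carboxylase, differed by 0.39 at most and was not called. *ME1*, the malic enzyme that yields NADPH, was opposite, with 12.53 and 12.15 in CMT-U309 against 11.17 and 10.85 in CMT-U27 and 10.72 and 10.81 in P114. CMT-U309 exceeded P114 by 2.99-fold and CMT-U27 by 2.51-fold (adjusted p = 4.2e-05 and 5.6e-05), and each of the 5 probes of *ME1* was higher in CMT-U309 than in CMT-U27.

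Among elongases and desaturases the lines were ordered gene by gene. *ELOVL6*, which elongates palmitate, stood at 9.59 and 9.34 in monocultured and co-cultured CMT-U27, 8.69 and 8.93 in P114, and 6.63 and 6.66 in CMT-U309. CMT-U309 lay below both, 7.05-fold under CMT-U27 (adjusted p = 7.0e-07) and 4.48-fold under P114 (adjusted p = 1.1e-05). *SCD*, the stearoyl-CoA desaturase, was 2.29-fold higher in P114 than in CMT-U309. This was below a fold of 2 after loess and Aquantile normalization, without scaling, or over all its probes. *SCD* was 2.02-fold higher in CMT-U27 than in CMT-U309, but its other probes gave 0.78 and 0.53 on the log2 scale, below the fold required. P114 and CMT-U27 did not differ beyond their spread for *SCD* (adjusted p = 0.34). *ELOVL7* was called in all 3 comparisons, highest in CMT-U27, but was well above background in 1 of 4 channels of CMT-U309. *ELOVL4*, an elongase of very long chains, was 2.72-fold higher in CMT-U309 than in CMT-U27 and 2.08-fold higher than in P114. *ELOVL2* was called lower in CMT-U27 than in CMT-U309 as well, although it was well above background in 1 and 2 of 4 channels of these lines. *FADS2*, a desaturase of polyunsaturated chains, had levels of 10.02 in CMT-U309, 9.99 in P114 and 9.02 in CMT-U27 at its brightest probe, while its other probes were 0.67 and 0.79 higher in CMT-U27 than in CMT-U309. The direction for *FADS2* thus depended on the probe.

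The long-chain acyl-CoA synthetases, which activate fatty acids for lipid assembly or oxidation, included the genes with the largest differences between lines, *ACSL5* and *ACSL6*, while *ACSL3* had a range of only 0.49. *ACSL5* stood at 12.16 and 12.12 in monocultured and co-cultured CMT-U27, 10.94 and 10.87 in P114, and 6.85 and 7.08 in CMT-U309. The lines were separate from each other, with CMT-U27 above CMT-U309 by 5.17 ± 0.15 (SE), or 36.0-fold (adjusted p = 3.0e-09), P114 above CMT-U309 by 15.3-fold (adjusted p = 4.4e-08), and CMT-U27 above P114 by 2.36-fold (adjusted p = 8.1e-05). Of its 3 other probes, 1 gave 5.38 for CMT-U27 minus CMT-U309, 1 was not well above background in CMT-U309, and the last gave 0.17. That last probe, well above background in all 12 channels, gave -0.68 for P114 minus CMT-U309, opposite in direction to the brightest probe. *ACSL6* was the reverse, with 6.85 and 6.83 in CMT-U309 where all 4 channels were well above background. In P114 no channel measured it well above background, so CMT-U309 was at least 5.79-fold higher than P114 (adjusted p = 7.6e-06; the bound is the CMT-U309 mean against, per array, the P114 signal or, if higher, the lowest signal that passed as well above background, and is open to dye bias). In CMT-U27 1 of 4 channels measured it, at a mean level of 2.75. *ACSL4*, which prefers arachidonate, was the 1 gene called higher in P114 than in CMT-U27 (2.52-fold, adjusted p = 7.7e-05). *ACSL1* was 3.01-fold higher in CMT-U27 and 2.23-fold higher in P114 than in CMT-U309, and *ACSL3* was not called in any comparison.

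**Figure D3:**
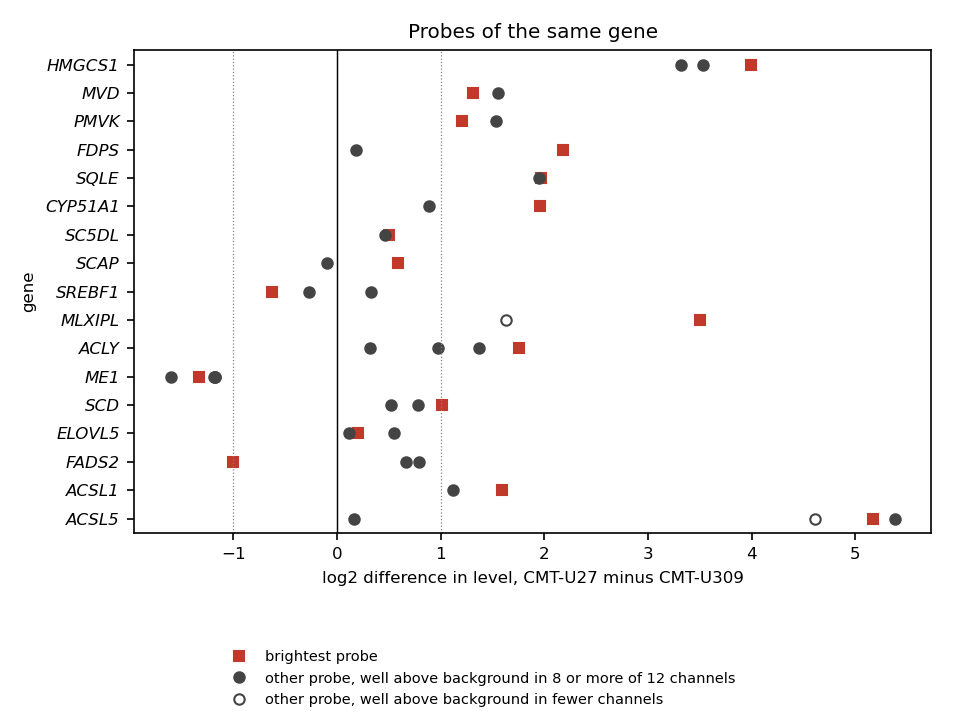
Difference in level between CMT-U27 and CMT-U309 (log2, x axis) at every tested probe of the genes with more than 1 probe (y axis). Red squares are the brightest probe, filled circles are other probes well above background in at least 8 of 12 channels, and the open circles were so in fewer; HMGCS1, SQLE and ME1 keep their direction at all probes, and FADS2 and SREBF1 have probes on both sides of 0.

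Other probes of the same gene mostly kept the direction. There were 68 probes for the 38 genes, and 18 genes had more than 1. Among other probes that were well above background in 8 or more channels and belonged to a gene called at its brightest probe, 19 of 19 had the same direction for CMT-U27 against CMT-U309. For P114 against CMT-U27 and for P114 against CMT-U309, 9 of 10 did in each case. Only the direction was counted, not the size. For CMT-U27 against CMT-U309, some other probes of *FDPS*, *SCD*, *ACSL5*, *CYP51A1* and *ACLY* were below the fold required. All 25 calls between CMT-U27 and CMT-U309 had the same sign in monoculture alone. A call is made on the mean of monoculture and co-culture, so this was largely built in and is no separate check. The median difference was 1.31 in monoculture and 1.20 in co-culture. Without any scaling of the channels, the medians of all probes moved to -0.31, -0.63 and -0.27 for P114 minus CMT-U27, P114 minus CMT-U309 and CMT-U27 minus CMT-U309. Relative to those values the medians of the 38 genes were -0.73, 0.17 and 1.22, which scaling cannot change by its construction.

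Co-culture with MDSCs was compared with monoculture over the 3 lines, with the dye-swap mean of each line as 1 value. The differences were small, none of the 38 genes passed the study's thresholds (unadjusted p below 0.05 and a fold change over 2), and none passed an adjusted p of 0.05 in limma, where the smallest was 0.50. Of all gene symbols, 0.627% were past the study's thresholds as higher and 0.159% as lower, and 0.0% passed the adjusted p. At an unadjusted p below 0.05, 6 genes were higher in co-culture and 0 lower, where 5.66% and 3.78% of symbols were. The 6 were *SQLE*, *DHCR7*, *HSD17B7*, *SREBF2*, *ELOVL1* and *FADS2*. The log2 ratios of the 38 genes ran from -0.33 to 0.53, with a median of 0.07, against 0.002 over all symbols. No gene was higher in co-culture on all 6 arrays or lower on all 6, and 8 were higher on 5. The count of 6 rested on the lines included: without CMT-U309 it was 0, without CMT-U27 it was 1, and without P114 it was 12. It was also 0 with the methods' t-test on the same 3 values and 0 when limma was run without a trend in intensity.

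**Figure D4:**
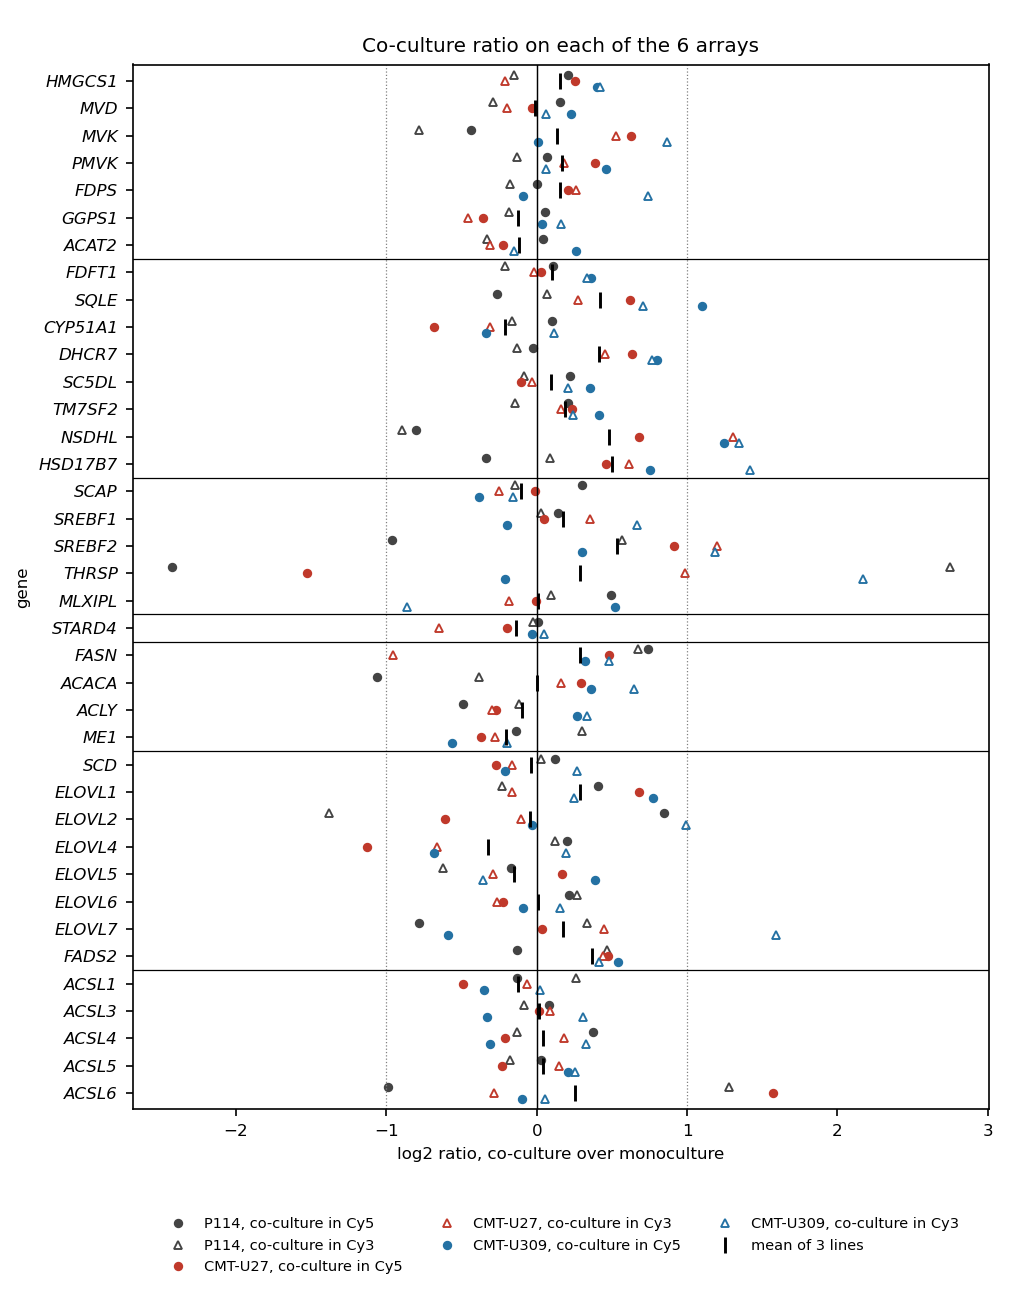
Log2 ratio of co-culture over monoculture (x axis) of each of the 38 genes (y axis, ordered by role) on the 6 arrays. Colour gives the line, filled circles are arrays with co-culture RNA in Cy5, open triangles those with it in Cy3, the black tick is the mean over the 3 lines and dotted lines mark a fold of 2. DHCR7, NSDHL and SQLE lie above 0 on all arrays of CMT-U27 and CMT-U309 and at or below 0 on most arrays of P114, and THRSP, near background, has arrays of the same line on opposite sides.

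Among the sterol steps, 3 of 8 genes had an unadjusted p below 0.05, all higher. For *SQLE* the log2 ratios were 0.62 and 0.28 on the arrays of CMT-U27 (co-culture in Cy5, then in Cy3), 1.097 and 0.71 for CMT-U309, and -0.27 and 0.07 for P114. All 4 arrays of CMT-U27 and CMT-U309 were above 0 and the arrays of P114 were around it, with a mean of 0.42 ± 0.50 (SD, n = 3 lines, limma adjusted p = 0.50). *DHCR7* had 0.63 and 0.45 in CMT-U27, 0.80 and 0.77 for CMT-U309, and -0.03 and -0.13 for P114 (mean 0.42 ± 0.45 SD, limma adjusted p = 0.50). *HSD17B7* had 0.46 and 0.62, 0.75 and 1.42, and -0.34 and 0.09 in the same order (mean 0.50 ± 0.61 SD, limma adjusted p = 0.50). For each of these genes the log2 ratio was near 0 in P114 and above 0 in CMT-U309 and CMT-U27. *NSDHL*, a sterol dehydrogenase, showed the largest contrast, with 0.68 and 1.31 in CMT-U27, 1.24 and 1.35 for CMT-U309, and -0.80 and -0.90 for P114, and its mean of 0.48 ± 1.16 (SD) did not pass (limma adjusted p = 0.62). It was a dim probe, well above background in 11 of 12 channels. After normexp background correction the means were 0.39 for *SQLE*, 0.25 for *DHCR7*, 0.17 for *HSD17B7* and 0.15 for *NSDHL*. *CYP51A1* was the sterol gene with the lowest mean, -0.21, and was below 0 on both arrays of CMT-U27 (-0.68 and -0.31). Its second, dimmer probe gave a mean of 0.14, so the sign for *CYP51A1* depended on the probe.

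No gene of the mevalonate and isoprenoid steps had an unadjusted p below 0.05 at its brightest probe. The second, dimmer probe of *FDPS* gave a mean of 0.64 (limma unadjusted p = 0.011), where the brightest gave 0.16. No other probe of these genes had an unadjusted p below 0.05. *HMGCS1*, despite its differences between lines, had ratios of 0.25 and -0.21 in CMT-U27, 0.40 and 0.42 for CMT-U309, and 0.21 and -0.15 for P114. Only the arrays of CMT-U309 agreed in sign, and the mean was 0.15 ± 0.22 (SD, limma adjusted p = 0.63). *MVK* was higher in CMT-U27 (0.63 and 0.53) and CMT-U309 (0.01 and 0.87) and lower in P114 (-0.44 and -0.78).

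Of the regulators, *SREBF2* had the highest mean of the 38 genes in the reported fit. Its ratios were 0.92 and 1.20 in CMT-U27, 0.30 and 1.18 for CMT-U309, and -0.97 and 0.57 for P114 (mean 0.53 ± 0.65 SD, limma adjusted p = 0.50). The arrays of P114 lay on opposite sides of 0 and those of the other lines above it. After normexp background correction the mean of *SREBF2* was 0.19, below the 0.39 of *SQLE*. *SREBF1* had 0.05 and 0.35, -0.20 and 0.67, and 0.14 and 0.03 in the same order of lines, with a mean of 0.17 ± 0.08 (SD, limma adjusted p = 0.57).

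On the fatty acid side, 2 of 17 genes had an unadjusted p below 0.05. *FADS2* had ratios of 0.47 and 0.44 in CMT-U27, 0.54 and 0.42 for CMT-U309, and -0.13 and 0.47 for P114, so 5 of 6 arrays were higher in co-culture (mean 0.37 ± 0.17 SD, limma adjusted p = 0.50). The other 2 probes of *FADS2* gave means of -0.02 and -0.10. *ELOVL1*, an elongase of saturated chains, had 0.68 and -0.16, 0.78 and 0.25, and 0.41 and -0.23 (mean 0.29 ± 0.21 SD, limma adjusted p = 0.50). In each line the Cy5 array (by the dye of the co-culture RNA) was the higher for *ELOVL1*, and over the Cy3 arrays alone its mean was -0.05. *FASN* had 0.48 and -0.96, 0.32 and 0.48, and 0.74 and 0.67, 5 of 6 arrays being higher (mean 0.29 ± 0.48 SD, limma adjusted p = 0.55). *ACLY* was higher on both arrays of CMT-U309 (0.27 and 0.33) and lower on both of CMT-U27 (-0.27 and -0.29) and P114 (-0.49 and -0.11). *SCD* ratios lay between -0.27 and 0.27 on all arrays. The acyl-CoA synthetases had means from -0.13 (*ACSL1*) to 0.26 (*ACSL6*), and none was called in co-culture, *ACSL5* having a mean of 0.04 ± 0.17 (SD, limma adjusted p = 0.91).

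The lines differed in how the genes moved as a group. A single line has no replicate, and no test was made within lines. In CMT-U309, 30 of 38 genes had a mean ratio above 0, with a median of 0.27 (0.02 over all symbols), and 19 (50.0%) were higher on both arrays, against 30.8% of symbols. There 2 genes, *SCAP* and *ME1*, were lower on both arrays (5.26%, against 23.0% of symbols). In CMT-U27, 18 genes had a mean above 0, 14 (36.8%) were higher on both arrays and 15 (39.5%) lower, near the 32.8% and 31.9% of symbols. In P114, 17 genes had a mean above 0, and 6 (15.8%) were higher and 6 lower on both arrays (20.6% and 20.3% of symbols). The mevalonate and sterol genes accounted for 12 of the 19 that were higher on both arrays of CMT-U309.

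With P114 left out, CMT-U27 and CMT-U309 gave more calls, and so did the array as a whole. At an unadjusted p below 0.05, 12 genes (31.6%) were higher and 4 (10.5%) lower, compared with 18.5% and 15.6% of symbols. After adjustment 7 (18.4%) were higher and 2 (5.26%) lower in limma, compared with 9.64% and 6.69% of symbols. The 7 were *NSDHL* (1.15), *SREBF2* (0.90), *HSD17B7* (0.81), *SQLE* (0.68), *DHCR7* (0.66), *FADS2* (0.47) and *ELOVL1* (0.39), as log2 means of 2 lines, with adjusted p from 0.0035 to 0.037. The 2 lower genes were *ELOVL4* (-0.57) and *ME1* (-0.35). This fit rests on 2 lines, with the spread pooled over all probes, and the part of the P114 arrays in the difference was not tested. Of the fits that left out a line, it had the most genes higher in co-culture. The line left out was the one whose ratios stood apart. Across probes, Pearson's r of the mean ratios was 0.58 for the 2 lines kept, and -0.08 for P114 with either of them. Leaving out P114 thus favours genes on which the kept lines agree, and the adjusted p-values are no separate check of co-culture.

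Of 38 other genes of sterol and lipid handling, 33 were found, and they were less one-sided. For CMT-U27 against CMT-U309, 9 were higher and 7 lower (median 0.38), where 18.1% and 14.0% of all gene symbols were. Against P114, 9 were higher in CMT-U27 and 7 lower, where 15.6% and 11.3% of symbols were. P114 was higher than CMT-U309 for 3 and lower for 3, where symbols gave 7.38% and 8.14%. *ABCA1*, which exports cholesterol, was lowest in CMT-U27, with 4.91 and 3.89 there against 8.42 and 8.17 in P114 (adjusted p = 5.6e-07) and 7.63 and 6.98 in CMT-U309. Its probe was well above background in only 2 of 4 channels of CMT-U27, and that of *LIPA* in 3 of 4. *LIPA*, the lysosomal lipase that frees cholesterol from its esters, was likewise lower in CMT-U27 than in P114 by 3.82 and than in CMT-U309 by 3.78 on the log2 scale. *OXSM*, a mitochondrial fatty acid synthase enzyme, had the same order of lines, with 5.24 and 5.20 in CMT-U27 and levels between 9.29 and 9.62 in the others. *PPARGC1A* was highest in CMT-U27, and *PPARA* was at least 9.24-fold higher in CMT-U309 than in P114, where it was not well above background. In co-culture 4 of the 33 genes were higher and 3 lower at an unadjusted p below 0.05, where 5.66% and 3.78% of symbols were. None was past the study's thresholds, and the median was -0.01.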

How the data were processed

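Expression was measured on Agilent canine 4x44K 2-colour arrays. The authors deposited scanner output with spot and background intensity and a processed intensity per dye, which Feature Extraction had background-subtracted and dye-normalized (version 10.10.1.1 in the file headers, 10.7.3.1 in the submitters' processing notes). They also deposited a table of log10 ratios, which equals co-culture over monoculture of the processed intensities within 4.997e-06 and has a median of 0 on every array.

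From the processed intensities, each of the 12 channels was scaled to a common median, and control and outlier-flagged spots were dropped. A probe was kept if its brightest value exceeded 10, as 40874 of 43603 did. Repeated spots, then the arrays of a dye-swap, were averaged. The methods' thresholds and filter were followed, and their t-test was kept as an alternative. The mean of 3 lines was tested against 0, and levels of the 6 RNAs were fitted to line and culture condition, both with limma 3.58.1 in R 4.3.3 (eBayes with a trend) and Benjamini-Hochberg adjustment over all probes. Both fits were tested on simulated data. Tables were handled with pandas 2.3.3 in Python 3.11.15. The number of arrays limits the precision.

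The brightest probe stood for a gene. Values of all arrays or RNAs were given for genes with an unadjusted p below 0.05 in co-culture, the 6 with the largest difference between lines, and *HMGCS1*, *SQLE*, *SREBF1*, *SREBF2*, *FASN*, *ACLY* and *SCD*; further genes were named by role. Of the 33 other pathway genes, called ones were named by size, and some results are not reported here. The genes and lists were chosen with earlier results of these data known. Of 38 symbols, 37 matched a reference table of dog genes. Replicate numbers mark the dye of the co-culture RNA. Deviations of same-numbered arrays from their line mean correlated at 0.36, 0.58 and 0.48 between lines, so the numbers pair the arrays by dye, and a fit with this block was an alternative. Normalization by loess with Aquantile and the omission of single arrays were added after the data had been seen.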

Additional observations from a re-analysis of the deposited data

Results flagged for a closer look

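For 12 of the 38 genes the ratios of co-culture over monoculture were above 0 on both arrays of 1 line and below 0 on both arrays of another, which drew attention to them. Of all gene symbols, 25.0% had such a pattern, and the difference between lines was not tested, since a line has no replicate. In P114 the ratios were lower than in CMT-U27 and CMT-U309 for 4 genes with this pattern against both lines. The log2 ratio of P114 minus that of CMT-U27 was -1.84 for *NSDHL*, -1.19 for *MVK*, -0.95 for *ACACA* and -0.62 for *DHCR7*. Against CMT-U309 the same differences were -2.14, -1.05, -1.23 and -0.86. *ACLY* was lower in P114 than in CMT-U309 by a difference of -0.60, and CMT-U27 minus CMT-U309 gave -0.58 for it. CMT-U27 minus CMT-U309 was also -0.50 for *GGPS1*, -0.35 for *SC5DL* and -0.26 for *MVD*. The order was opposite for 4 genes of the fatty acid side and its regulators, where P114 minus CMT-U27 was 1.06 for *ELOVL4*, 0.49 for *ELOVL6*, 0.39 for *MLXIPL* and 0.29 for *SCD*.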

How the results depend on the processing

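The differences between CMT-U27 and CMT-U309 kept their direction at most settings, and the co-culture calls did not. Of genes higher in co-culture at an unadjusted p below 0.05, 6 in the reported fit, the number was 2 after loess and Aquantile normalization, 2 over probes well above background in all channels, 1 with the deposited log ratios, 0 with the methods' t-test and 0 without a trend. With the 6 arrays as separate values it was 6 with the replicate block, which pairs arrays by dye, and 4 without it. Normexp with loess called 1 gene lower. For P114 against CMT-U27 the numbers higher and lower were 0 and 7 after normexp (4.23% and 4.7% of all probes) and 0 and 19 without scaling (5.99% and 22.6%), and 2 were higher after loess and Aquantile (11.5%). For P114 against CMT-U309, 5 were higher after normexp (2.0% of probes), and 2 were higher and 10 lower without scaling (2.07% and 26.9%). For CMT-U27 against CMT-U309, 13 were higher after normexp (5.13% of probes), and 2 were lower over probes well above background in all channels (9.75%). At single genes, normexp brought CMT-U27 minus CMT-U309 to 0.75 for *HSD17B7* and 0.72 for *SREBF2*, below the fold required. *SCD* in co-culture turned to 0.0122 after normexp. The median over all probes of a gene turned *SCD* to 0.21 and *ACLY* to 0.12 in co-culture, and CMT-U27 minus CMT-U309 to 0.74 for *FADS2* and 0.33 for *SREBF1*. The causes were not tested.

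When 1 line, 1 dye orientation or 1 array was left out, the number higher in co-culture ran from 0 (without CMT-U309) to 12 (without P114), the number lower from 0 to 4, those past the study's thresholds from 0 to 1, those with an adjusted p below 0.05 from 0 to 9 (without P114), and the median ratio from -0.001 to 0.112. Between lines, P114 was higher than CMT-U27 for 1 to 2 genes and lower for 10 to 16, and higher than CMT-U309 for 7 to 10 and lower for 2 to 4. CMT-U27 was higher than CMT-U309 for 20 to 21 and lower for 3 to 4. The ratios in co-culture ran from -0.0467 to 0.622 for *ELOVL1*, from -0.119 to 0.0524 for *SCD*, from -0.00441 to 0.349 for *SREBF1* and from -0.293 to 0.00858 for *ACLY*, changing sign. Dim probes limit *THRSP*, *ELOVL2*, *ACSL6* and *ELOVL7*.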
